A study of Mus musculus with 6 samples.

Results

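Neutrophils carry their antimicrobial proteins in granules that are filled at successive stages of maturation in the bone marrow. The 10 genes described here encode such proteins and were taken by name: 4 of primary (azurophil) granules, Mpo, Elane, Prtn3 and Ctsg, 5 of specific granules, Ltf, Camp, Ngp, Lcn2 and Mmp8, and 1 of gelatinase granules, Mmp9. The last 6 are called the later granule genes below. They were represented by 11 of the 34945 probe sets with exactly 1 gene symbol, and by 10 of 18193 named genes. All 10 genes passed the filter on dim probe sets, which required a log2 value above 4 on at least 3 of the 6 arrays and left 10151 genes for testing. Since the filter can be met by 1 group alone, a gene that passed only through its higher group had to differ.

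Expression was measured on 6 Affymetrix arrays from 3 tamoxifen-treated Grem1;TdTomato mice on a C57BL/6J background, recorded as male and 6 to 8 weeks old. From the digested marrow of each mouse a Grem1+ fraction (3 arrays), for which the labels give only a sort for Grem1, and its Grem1- counterpart (3 arrays) were taken, so that the groups are matched by mouse. The Grem1- cells had not recombined and lacked CD45, CD31 and Ter-119 in the sort, a gate that the labels state for that fraction only. All animals of both groups carried the same alleles and received oral tamoxifen. The labels name no Cre driver other than by the genotype and do not say whether animals were pooled. Values are log2 expression after GCRMA, and differences are Grem1+ minus Grem1-.

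Primary granules are made first, in promyelocytes, and hold myeloperoxidase and serine proteases related to one another. Specific granules follow in myelocytes and metamyelocytes and hold lactoferrin, cathelicidin and a collagenase, and gelatinase granules follow in band cells. Because each class is transcribed in its own window, the messages of the primary class mark immature neutrophil precursors and those of the later classes more mature ones, while the finished cell keeps the proteins after transcription has stopped.

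Several properties of the arrays bear on these genes. Ptprc, the gene of CD45, stood at 7.29, 9.61 and 10.56 on the Grem1+ arrays of mice 1, 2 and 3, against 12.13, 11.78 and 12.37 on the Grem1- arrays, although the Grem1- gate was negative for CD45. A second Ptprc probe set stood at 2.53, 3.30 and 3.71 in Grem1+, all below the dim limit of log2 4, against 9.38, 8.37 and 8.81 in Grem1-. Grem1 stood at 4.49, 4.14 and 8.61 in Grem1+, against 3.69, 3.75 and 3.70 in Grem1-. Xist, which the inactive X chromosome expresses, read 10.60 on the Grem1+ array and 11.04 on the Grem1- array of mouse 3, and no more than 2.99 for mice 1 and 2 on the same probe set, which goes against the recorded sex. Results are therefore also given without mouse 3. For the Gapdh control probes, a measure of RNA shortening, signal at the 3' end exceeded that at the 5' end by 3.58 ± 0.51 for Grem1+ against 2.66 ± 0.34 for Grem1- (log2, mean ± SD over 3 arrays each). For the actin control the excess was 0.09 ± 0.11 in Grem1+ against 0.16 ± 0.02 in Grem1-. The part of RNA quality in the differences below was not tested.

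Every granule gene was lower in Grem1+ on average, and for all 10 the highest Grem1+ array lay below the lowest Grem1- array, an order that 19.8% of all tested genes showed. After adjustment over all genes, 9 of the 10 fell and 1, Mpo, did not pass the threshold of 0.05, where 8.51% of all tested genes were called lower, 11.7% higher and 20.2% in either direction. The differences ran from -5.73 for Mmp8 to -1.99 for Ngp, beside a median of 0.04 for all genes. Since 2 of the 3 Grem1+ arrays were below log2 4 for Mmp8, its value there has no reliable size, and with dim values set to 4 the lowest difference was -4.99, for Lcn2. By class, 3 of 4 primary and 6 of 6 later genes fell. These arrays measure bulk RNA, so fewer cells of a type and less RNA per cell cannot be told apart. Nothing in the labels says more of the replicates than that they are separate mice.

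**Figure D1:**
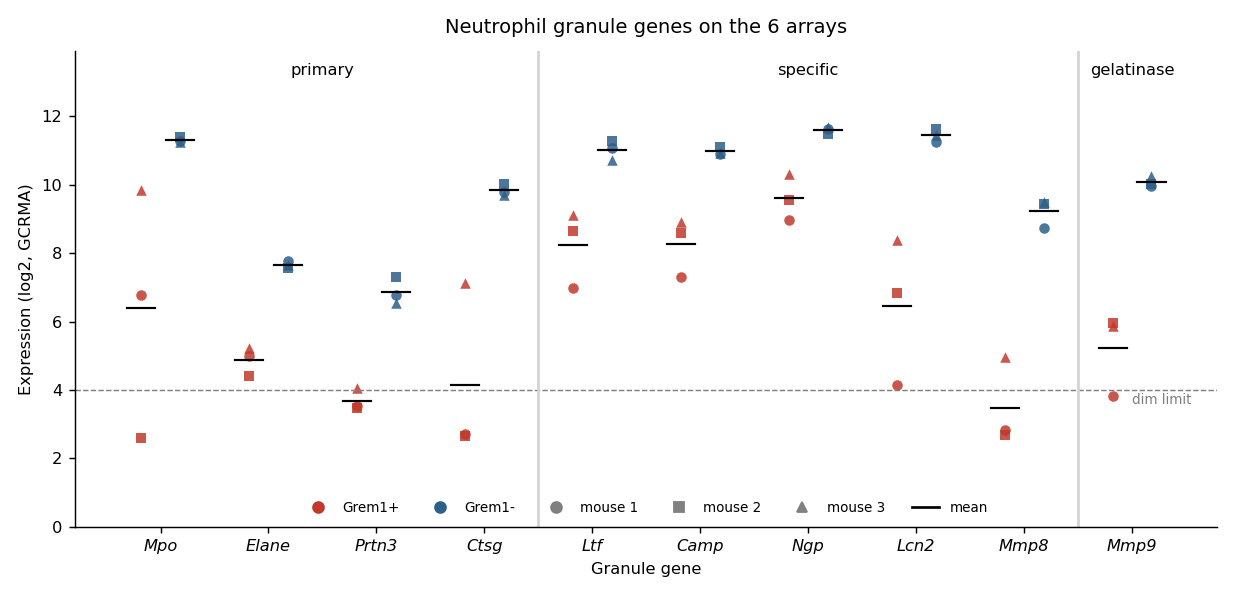
Expression (log2) of each granule gene on the 3 Grem1+ arrays (red, left) and the 3 Grem1- arrays (blue, right), with 1 marker shape per mouse, black bars for group means and a dashed line at the dim limit of log2 4. For every gene all Grem1+ points lie below all Grem1- points, and the Grem1+ points of 8 genes have an SD above 0.43, the widest Grem1- SD.

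The promoters of the 4 primary genes are shown because these genes are described as 1 class and each holds the same short match. The 250 bases before the RefSeq start are given, 5′ to 3′ on the strand of the gene, and capitals mark AGGAAGT, a core sequence bound by PU.1 and other ETS factors, which was searched on both strands.
Mpo promoter, GRCm38.p6 chr11:87793534-87793783, plus strand: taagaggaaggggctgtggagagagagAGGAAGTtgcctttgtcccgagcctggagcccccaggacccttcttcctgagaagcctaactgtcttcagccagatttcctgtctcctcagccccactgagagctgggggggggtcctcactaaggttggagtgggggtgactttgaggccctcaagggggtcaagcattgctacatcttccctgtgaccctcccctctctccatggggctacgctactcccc
Elane promoter, GRCm38.p6 chr10:79886062-79886311, plus strand: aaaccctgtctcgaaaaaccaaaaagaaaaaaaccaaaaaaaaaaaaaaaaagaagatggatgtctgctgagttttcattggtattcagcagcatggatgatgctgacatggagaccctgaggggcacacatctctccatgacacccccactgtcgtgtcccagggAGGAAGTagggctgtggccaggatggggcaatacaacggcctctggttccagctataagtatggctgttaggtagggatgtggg
Prtn3 promoter, GRCm38.p6 chr10:79879417-79879666, plus strand: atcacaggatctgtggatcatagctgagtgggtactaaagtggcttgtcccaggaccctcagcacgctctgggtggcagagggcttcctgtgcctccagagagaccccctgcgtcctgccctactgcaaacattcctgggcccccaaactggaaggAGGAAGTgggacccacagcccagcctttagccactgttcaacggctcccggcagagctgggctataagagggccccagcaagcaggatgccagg
Ctsg promoter, GRCm38.p6 chr14:56102575-56102824, minus strand: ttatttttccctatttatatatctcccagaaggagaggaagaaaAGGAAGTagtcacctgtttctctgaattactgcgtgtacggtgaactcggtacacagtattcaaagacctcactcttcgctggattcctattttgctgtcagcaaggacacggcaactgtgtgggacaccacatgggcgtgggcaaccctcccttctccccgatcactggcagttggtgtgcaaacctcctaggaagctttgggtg
Over all 32851 such windows 7.69% held this sequence on either strand. Among the granule genes it was present in all 4 primary promoters and, of the 5 later promoters at hand, in that of Mmp8. The matches began 84 bases before the start in Elane and 94 in Prtn3, which lie close together on chromosome 10, and 223 and 206 bases before it in Mpo and Ctsg. AACGG, a core of the Myb site, was found in Elane and Prtn3 only, at 50 and 55 bases before the start, and in 14.5% of all windows. TGTGGT, a core of the RUNX site, was found in Ctsg alone and in 14.0% of all windows. A match describes letters and is not evidence of binding.

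Myeloperoxidase, the enzyme that makes hypochlorous acid from hydrogen peroxide, is encoded by Mpo. Mpo stood at 6.77, 2.59 and 9.85 on the Grem1+ arrays of mice 1, 2 and 3, against 11.27, 11.40 and 11.23 on the Grem1- arrays. The 3 Grem1- arrays were nearly equal, while the Grem1+ arrays spread over more than any other granule gene, with mouse 2 below the dim limit and mouse 3 closest to Grem1-. The mean difference was large, at -4.90 (SE 1.52), and did not pass (limma adjusted p = 0.101). It was -6.66 without mouse 3 and -2.95 without mouse 2. Since mouse 2 was dim in Grem1+, the mice are not ranked by how far each moved it. With dim values set to 4 the mean difference was -4.43. Its adjusted p ranged from 0.0683 to 0.211 over 12 alternatives of processing and model that kept all 3 mice.

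Ctsg encodes cathepsin G, a chymotrypsin-like serine protease. It stood at 2.72, 2.64 and 7.11 in Grem1+, against 9.79, 10.03 and 9.69 in Grem1-. As for Mpo, mouse 3 stood apart, and the Grem1+ arrays of mice 1 and 2 were dim. The difference was -5.68 (SE 1.11, limma adjusted p = 0.0390), or -4.80 with values below log2 4 set to 4. That makes Ctsg at least 27.8-fold lower in Grem1+ on average over the 3 mice. Within mouse 3, where neither array was dim, the difference was -2.58. The mean difference was -4.99 without mouse 1, -4.82 without mouse 2 and -7.23 without mouse 3.

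Elane and Prtn3, the genes of neutrophil elastase and proteinase 3, had small spreads in both groups. Elane stood at 4.98, 4.42 and 5.22 in Grem1+, against 7.77, 7.57 and 7.66 in Grem1-. Its groups were tight, with SDs of 0.41 in Grem1+ and 0.10 in Grem1-, and the difference was -2.79 (SE 0.29, limma adjusted p = 0.0135), 6.92-fold lower. Prtn3 stood at 3.54, 3.48 and 4.05 in Grem1+, against 6.79, 7.29 and 6.54 in Grem1-. The Grem1+ arrays of mice 1 and 2 were dim and that of mouse 3 was just over the limit, so the difference of -3.18 (SE 0.37, limma adjusted p = 0.0159) became -2.85 with dim values set to 4.

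Among the later genes, C/EBP factors are known regulators of specific granule genes in mice, and the promoters of Ltf and Ngp are shown because each holds more than 1 match to a C/EBP pattern. Capitals here mark TTNNGNAA on either strand.
Ltf promoter, GRCm38.p6 chr9:111019042-111019291, plus strand: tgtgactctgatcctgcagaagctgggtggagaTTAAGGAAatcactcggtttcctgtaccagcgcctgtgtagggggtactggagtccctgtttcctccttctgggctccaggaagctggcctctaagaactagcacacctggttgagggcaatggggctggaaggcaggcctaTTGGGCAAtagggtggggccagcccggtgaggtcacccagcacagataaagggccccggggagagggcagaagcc
Ngp promoter, GRCm38.p6 chr9:110419558-110419807, plus strand: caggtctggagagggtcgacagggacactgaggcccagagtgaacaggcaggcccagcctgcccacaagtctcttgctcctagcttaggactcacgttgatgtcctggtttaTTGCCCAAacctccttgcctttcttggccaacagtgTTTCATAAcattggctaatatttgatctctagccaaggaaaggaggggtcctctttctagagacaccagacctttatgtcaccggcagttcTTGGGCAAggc
The pattern was found in 36.8% of all 32851 windows. It was present in 4 of the 5 later promoters, Ltf, Ngp, Lcn2 and Mmp8, with matches beginning 217 and 75 bases before the start in Ltf and 138, 102 and 11 bases before it in Ngp. It was not found in the window of Camp or of any primary gene. No window was at hand for Mmp9.

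Lactoferrin, an iron-binding protein, is the product of Ltf. Ltf stood at 6.97, 8.64 and 9.12 in Grem1+, against 11.08, 11.28 and 10.72 in Grem1-. Mouse 1 was the lowest Grem1+ array, and the groups did not overlap. The difference was -2.78 (SE 0.57, limma adjusted p = 0.0423), and the call was lost under cyclic loess (limma adjusted p = 0.0518). It was -2.12 without mouse 1 and -3.37 without mouse 3.

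Camp encodes cathelicidin, the precursor of the antimicrobial peptide CRAMP in mice, and Ngp encodes neutrophilic granule protein, a cathelicidin relative. Camp stood at 7.31, 8.59 and 8.92 in Grem1+, against 10.90, 11.10 and 10.92 in Grem1-. The difference was -2.70 (SE 0.41, limma adjusted p = 0.0241), 6.49-fold lower, and mouse 1 again was the lowest. Ngp stood at 8.96, 9.55 and 10.30 in Grem1+, against 11.63, 11.47 and 11.69 in Grem1-. It had the smallest difference of the 10 genes, -1.99 (SE 0.36, limma adjusted p = 0.0329), 3.98-fold lower, and every Grem1+ array remained far above the dim limit.

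Lcn2 encodes lipocalin 2, which withholds iron by binding bacterial siderophores and is also made by cells outside the blood. It stood at 4.16, 6.85 and 8.38 in Grem1+, against 11.25, 11.64 and 11.46 in Grem1-. The Grem1+ arrays spread over 4.23, with mouse 1 lowest and just above the dim limit. The difference was -4.99 (SE 0.85, limma adjusted p = 0.0294), or 31.8-fold lower. It was -3.94 without mouse 1 and -5.95 without mouse 3.

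The matrix metalloproteinases of both later granule types fell strongly. Mmp8, neutrophil collagenase, stood at 2.82, 2.68 and 4.95 in Grem1+, against 8.73, 9.44 and 9.49 in Grem1-. Mice 1 and 2 were dim, and the difference of -5.73 (SE 0.52, limma adjusted p = 0.0116) became -4.90 with dim values set to 4. Mmp8 was thus at least 29.8-fold lower on average over the 3 mice. Its difference was -6.33 without mouse 3. Mmp9, gelatinase B, which osteoclasts also make, stood at 3.83, 5.95 and 5.86 in Grem1+, against 9.95, 10.03 and 10.24 in Grem1-, on the probe set used. The difference was -4.86 (SE 0.51, limma adjusted p = 0.0138), and -4.23 without mouse 1.

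Mmp9 was the only granule gene with a second probe set. That probe set stood at 5.01, 6.70 and 5.63 in Grem1+, against 9.01, 9.08 and 9.45 in Grem1-. Its difference was smaller, at -3.40 (SE 0.45), and passed in limma when every named probe set was tested (adjusted p = 0.0187), a test in which 7.76% of 18157 probe sets were called lower. Both probe sets had mouse 2 as the highest Grem1+ array. Of 11 osteoclast markers 5 were tested, 2 fell, 1 rose and 2 did not pass, with a median of -0.93. Car2, carbonic anhydrase 2, which erythroid cells also make, stood at 3.85, 2.86 and 5.67 in Grem1+, against 10.94, 11.13 and 10.66 in Grem1-, a difference of -6.78 (SE 0.71, limma adjusted p = 0.0139). Itgb3, the beta 3 integrin, differed by -1.62 (SE 0.27, limma adjusted p = 0.0290). Nfatc1, a transcription factor of osteoclasts and other cells, rose by 2.97 (SE 0.26, limma adjusted p = 0.0109), a call lost with its most variable probe set (0.0540). Acp5, tartrate-resistant acid phosphatase, did not pass and stood at 3.67, 6.61 and 5.56 in Grem1+, against 6.65, 6.98 and 5.01 in Grem1-. Ocstamp, Dcstamp, Calcr, Atp6v0d2, Oscar and Tnfrsf11a did not pass the filter on dim probe sets. The part of osteoclasts in the Mmp9 difference was not tested.

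Several calls were lost without the filter. Without the filter, Ctsg (adjusted p = 0.0990), Ltf (0.0952), Camp (0.0506), Ngp (0.0593) and Lcn2 (0.0761) no longer passed in limma, while Elane, Prtn3, Mmp8 and Mmp9 did. With the mouse block kept, the fit to any 2 mice called 0 genes in the whole table and so bears on no single gene, although an unadjusted p under 0.05 was still found for 3018 genes without mouse 1, 2919 without mouse 2 and 2881 without mouse 3, and all 10 granule genes kept a negative difference. Without the block, leaving out mouse 3 kept all 9 calls, leaving out mouse 1 lost Ctsg and Ngp, and leaving out mouse 2 lost Ctsg, Ltf, Camp, Ngp and Lcn2. Without mouse 3, whose Xist goes against its recorded sex, the differences ran from -7.23 for Ctsg to -2.29 for Ngp.

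Set side by side, the class medians of the mean differences were close. The median difference was -4.04 for the 4 primary genes and -3.82 for the 6 later genes, a gap of -0.22 (primary minus later), which became 0.15 with dim values set to 4 and -0.59 with probe sets averaged. It was -0.97 without mouse 1, 1.07 without mouse 2 and -0.86 without mouse 3. The ranges overlapped almost fully, from -5.68 to -2.79 in the primary class and from -5.73 to -1.99 in the later classes. No test was made of the gap, since the genes were chosen with results of these data known.

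Within mice, however, the gap took both signs. In mouse 1 the primary median was -3.88 and the later median -5.01, a gap of 1.13. In mouse 2 they were -5.60 and -3.36, a gap of -2.24. In mouse 3 they were -2.46 and -2.54, a gap of 0.08. With dim values set to 4 the gaps were 0.77, -1.30 and 0.08 in mice 1, 2 and 3. By median the later genes thus fell further in mouse 1 and the primary genes in mouse 2, but the ranges of the classes overlapped. In mouse 1 the differences ran from -7.07 to -2.79 in the primary class and from -7.10 to -2.67 in the later classes. In mouse 2 they ran from -8.81 to -3.15 and from -6.76 to -1.92. With 3 mice this is a description of these arrays.

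**Figure D2:**
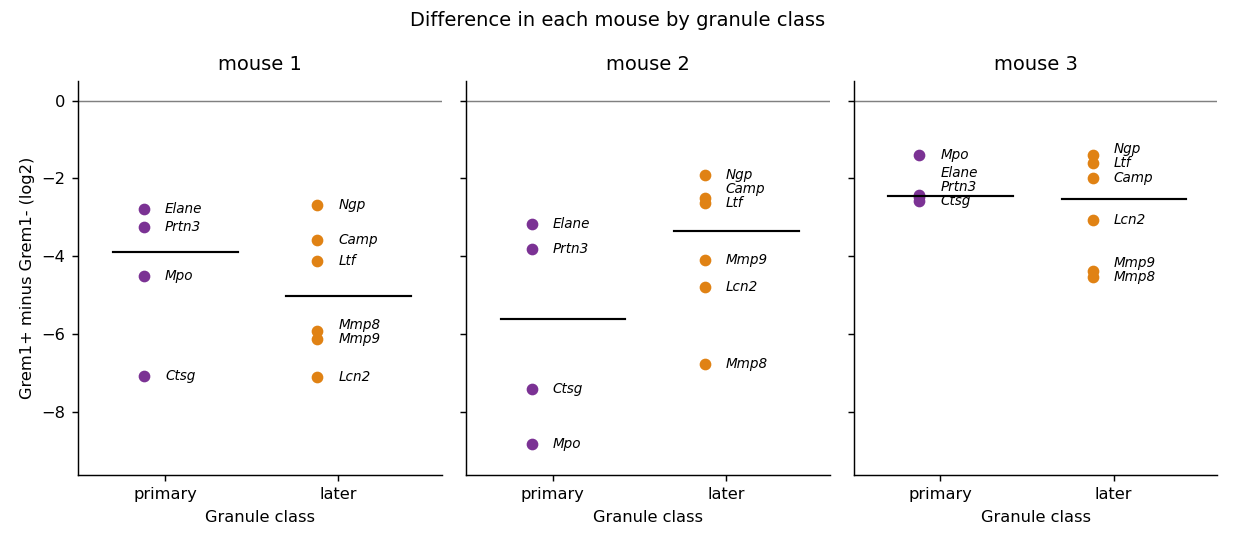
Difference Grem1+ minus Grem1- (log2) of each granule gene within mouse 1, 2 and 3, for the primary (purple) and later (orange) classes, with a black line at the class median. The primary median lies above the later median in mouse 1 (-3.88 and -5.01), below it in mouse 2 (-5.60 and -3.36) and next to it in mouse 3 (-2.46 and -2.54).

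The Grem1- arrays varied little for these genes. Among them the SDs ran from 0.09 to 0.38 for primary genes and from 0.11 to 0.43 for later genes. On the Grem1+ arrays they ran from 0.31 to 3.64 and from 0.67 to 2.14. With dim values set to 4, the Grem1+ array of mouse 2 lay above that of mouse 1 in 5 of the 6 later genes, by 0.59 for Ngp up to 2.69 for Lcn2, and the sixth, Mmp8, was dim in both. In the primary class it lay above in 0 of 4 genes, below by 2.77 for Mpo and by 0.56 for Elane, and Prtn3 and Ctsg were dim in both. Among all tested genes mouse 2 was above mouse 1 in 49.3%, and among all genes called lower in 44.2%.

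The Grem1+ array of mouse 3 was the highest of the 3 in all 4 primary genes and in 5 of 6 later genes, the exception being Mmp9. This order held for 28.3% of all tested genes and for 48.1% of the genes called lower. Relative to mouse 1, with dim values set to 4, mouse 3 was higher by a median of 1.66 in the primary and 1.73 in the later class. Ptprc and Grem1 were also highest in mouse 3 among the Grem1+ arrays, and their part in these levels was not tested.

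**Figure D3:**
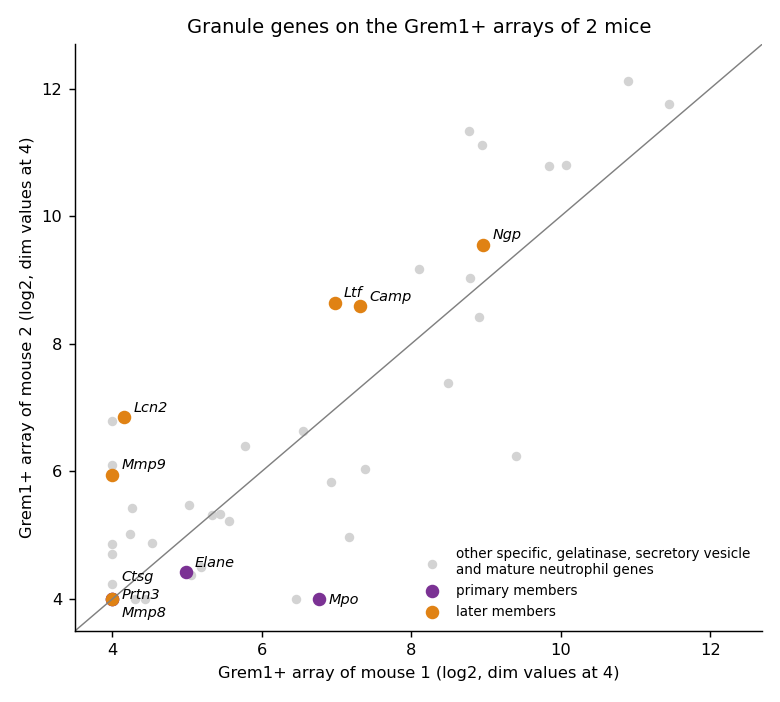
Level (log2, values below 4 set to 4) of granule and neutrophil genes on the Grem1+ array of mouse 2 (vertical) against that of mouse 1 (horizontal), with the line of equality. Later genes (orange) lie on or above the line and primary genes (purple) on or below it, with Ctsg, Prtn3 and Mmp8 at the dim limit in both mice, while other neutrophil genes (grey) lie on both sides.

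Other genes of the same granules were read from lists. Of 15 other primary granule genes, 10 were tested, 1 rose and 1 fell, and the median difference was 0.14. Most of these are lysosomal enzymes that other cells also make. Gaa, acid alpha-glucosidase, rose by 2.01 (SE 0.32, limma adjusted p = 0.0258) and Man2b1, lysosomal alpha-mannosidase, differed by -1.96 (SE 0.31, limma adjusted p = 0.0259). The call of Man2b1 was lost when its probe sets were averaged (-1.31, limma adjusted p = 0.0624).

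The other genes of specific and gelatinase granules also fell in most cases. Of 24, 21 were tested, 15 fell, 0 rose and 6 did not pass, with a median difference of -2.83. Pglyrp1, a peptidoglycan recognition protein, stood at 3.55, 6.10 and 6.25 in Grem1+, against 10.04, 10.30 and 10.23 in Grem1-, a difference of -4.89 (SE 0.61, limma adjusted p = 0.0176). Bst1 differed by -4.62 (SE 0.52, limma adjusted p = 0.0156), or -3.86 with dim values set to 4. Cd177, a surface glycoprotein of neutrophils, stood at 9.40, 6.24 and 6.63 in Grem1+, against 11.64, 11.76 and 11.46 in Grem1-, so that here mouse 1 was the highest Grem1+ array. Without the filter on dim probe sets Cd177 no longer passed in limma (adjusted p = 0.0793). In this list the Grem1+ array of mouse 2 was above that of mouse 1 in 8 of 21 genes and below it in 11.

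Genes of secretory vesicles and mature neutrophils were read likewise. Of 24, 16 were tested, 11 fell, 1 rose and 4 did not pass, with a median of -2.95. Trem3 differed by -4.58 (SE 0.28), Clec4e by -4.36 (SE 0.36), Il1r2, a decoy receptor of interleukin 1, by -3.93 (SE 0.34) and Cxcr2, a chemokine receptor of mature neutrophils, by -3.55 (SE 0.59). Their limma adjusted p-values were 0.00906, 0.0107, 0.0109 and 0.0280, in that order, and the call of Cxcr2 was lost when dim probe sets were kept (0.0674).

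Genes of packaging, activation and inhibition of granule proteases were taken as 1 list. Of 9 such genes, 7 were tested, 5 fell and 1 rose, with a median of -2.60. Srgn, the proteoglycan serglycin, on which granule proteins are packed, differed by -2.60 (SE 0.45, limma adjusted p = 0.0297). Ctsc, cathepsin C, which removes the propeptide of elastase, proteinase 3 and cathepsin G, stood at 3.29, 5.90 and 4.92 in Grem1+, against 10.29, 10.62 and 10.19 in Grem1-. Its difference was -5.67 (SE 0.54, limma adjusted p = 0.0125). Serpinb1a, a cytosolic inhibitor of these proteases, differed by -6.04 (SE 0.49, limma adjusted p = 0.0102). It was dim on 2 Grem1+ arrays, and with dim values set to 4 its difference was -5.48. Slpi, a secreted inhibitor, differed by -3.52 (SE 0.39, limma adjusted p = 0.0150). The gene that rose was Timp1, an inhibitor of metalloproteinases that stromal cells make, at 9.26, 9.49 and 9.29 in Grem1+, against 6.00, 4.08 and 5.28 in Grem1-, a difference of 4.23 (SE 0.51, limma adjusted p = 0.0166).

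Of 13 granulocyte transcription factors, 11 were tested, 4 fell and 1 rose, and the median was -0.90. Gfi1, a repressor needed for neutrophil maturation in mice, stood at 3.49, 2.87 and 3.96 in Grem1+, against 8.17, 8.36 and 9.47 in Grem1-. All Grem1+ arrays were dim, and Gfi1 passed in the fit without the floor (limma adjusted p = 0.00906). With the floor the difference was -4.67, at least 25.4-fold lower on average over the 3 mice. Myb differed by -5.06 (SE 0.45, limma adjusted p = 0.0115). Spi1, which encodes PU.1, differed by -1.92 (SE 0.31, limma adjusted p = 0.0259). It was dim on 2 Grem1+ arrays, and with dim values set to 4 its difference was -1.67. Klf4, which epithelial and stromal cells also express, rose by 2.49 (SE 0.31, limma adjusted p = 0.0177). Cebpa did not pass the filter and Cebpe had no probe set with 1 symbol.

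**Figure D4:**
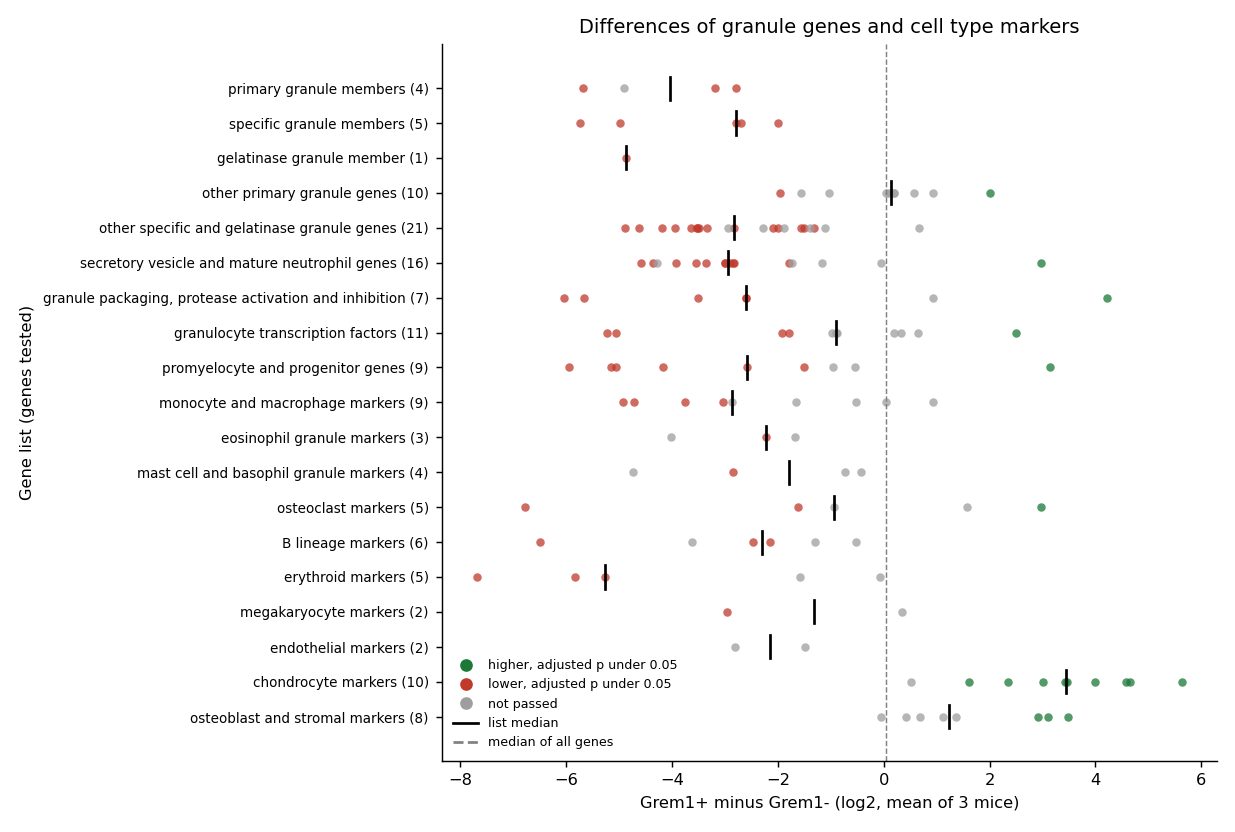
Difference Grem1+ minus Grem1- (log2, mean of 3 mice) of each tested gene by list, with the number tested in brackets, red and green for genes past the threshold and black bars for list medians. The granule and neutrophil lists have negative medians except the other primary granule genes (median 0.14), and chondrocyte markers have a positive median (3.44). Single genes in the lists with negative medians rose, among them Timp1 (4.23) and Klf4 (2.49).

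Markers of other marrow cells were read by the same fit. Of 11 promyelocyte and progenitor genes 9 were tested, 6 fell and 1 rose. Their median was -2.59, but only -0.90 with dim values set to 4. Ms4a3, a gene of promyelocytes, stood at 3.62, 4.45 and 4.98 in Grem1+, against 8.59, 8.36 and 8.60 in Grem1-. Of 16 monocyte and macrophage markers 9 were tested and 4 fell (median -2.87), and their summed level, as log2 of the sum of linear values, was 9.44 to 10.27 in Grem1+, against 11.26 to 11.86 in Grem1-. Of 12 erythroid markers 5 were tested and 3 fell (median -5.26), with summed levels of 10.69 to 11.48 in Grem1+, against 12.46 to 12.66 in Grem1-. Of 12 B lineage markers 6 were tested and 3 fell (median -2.30), with summed levels of 6.45 to 7.45 in Grem1+, against 10.62 to 10.87 in Grem1-. Of 9 eosinophil markers 3 were tested and 1 fell, and of 13 mast cell and basophil markers 4 were tested and 1 fell. In the lists from monocyte to eosinophil markers, Ms4a6c, Hemgn, Vpreb1, Cd79b and Epx were dim on all 3 Grem1+ arrays. They passed the filter through Grem1- alone and so had to differ. The call of Epx, an eosinophil marker, was lost with dim values set to 4 (limma adjusted p = 0.0923) and without the filter (0.0892). Of 8 megakaryocyte markers 2 were tested and 1 fell, and of 7 endothelial markers 2 were tested and 0 passed. In these 7 lists from monocyte to endothelial markers 0 genes rose. They leave out the osteoclast markers given above, of which 1 rose. The mast cell proteases Mcpt4, Cma1 and Tpsb2 did not pass the filter. Chondrocyte markers went the other way, with 9 of 10 higher, a median of 3.44 and summed levels of 14.82 to 15.03 in Grem1+, against 12.41 to 12.92 in Grem1-. The part of these cell types in the granule result was not tested.

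The genes whose pattern over the 6 arrays was closest to each class were found by the root mean square distance between centred profiles. Nearest to the primary class were Itgb2 at a distance of 0.136, Rgs2 at 0.208, Spn at 0.297, Mgst1 at 0.353 and Fermt3 at 0.451 (log2). Itgb2, the beta 2 integrin of leukocytes, stood at 7.38, 6.04 and 9.22 in Grem1+, against 11.44, 11.54 and 11.49 in Grem1-. Mouse 2 was its lowest Grem1+ array, as for Mpo, although Itgb2 is in the list of other specific and gelatinase granule genes. Nearest to the later classes were Il1r2 at 0.288, Cdc6 at 0.321, Ms4a3 at 0.334, Cep128 at 0.345 and Sephs2 at 0.353. Ms4a3, although a promyelocyte gene, was thus among the 5 nearest to the later profile, with mouse 1 lowest in Grem1+. All 10 genes passed the threshold as lower, which their likeness to the granule genes all but fixes. Without the filter on dim probe sets Itgb2 (adjusted p = 0.0788), Rgs2 (0.0647), Spn (0.0505) and Mgst1 (0.0569) no longer passed in limma.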

How the data were processed

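The deposited table holds log2 values per probe set for 6 Affymetrix arrays. Per the labels' protocols, the authors isolated RNA by RNAqueous-Micro and amplified it by Ovation One-Direct. The submitters' processing notes name GCRMA, and its version is not given in the sources used here. That the values are log2 was inferred from their range. The scanner files were not analysed here.

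Gene names came from the platform annotation, and only the 34945 probe sets with 1 symbol were used. Entrez identifiers of 34741 of them were found in a RefSeq gene table, which changed 0 symbols. Probe sets above log2 4 on at least 3 arrays were kept, and per gene the one with the highest mean was used. The limit of log2 4 for dim values is a choice, with no measured detection limit behind it. Groups were compared with limma 3.58.1 (lmFit and eBayes, R 4.3.3), two-sided, with the mouse as a block, because, by the design text, each mouse gave both fractions, and adjusted by Benjamini-Hochberg over 10151 genes. The fit had 2 residual degrees of freedom, and the number of arrays limits the precision. Deviations of same-numbered arrays from their group means correlated at 0.0142, 0.0737 and 0.0456 across genes. Those of arrays with different numbers correlated at -0.059 to 0.0176. All these values are small, and the pairing is taken from the design text. The code was tested on simulated data, with 50 genes changed at each size among 10151. Of changes of log2 1, 2, 4 and 6 it recovered 0%, 0%, 50% and 70%, with 0 false calls. A gene that did not pass may therefore still differ.

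Genes, lists and tests were chosen with earlier results of these data known. Named genes are the members, up to 4 called genes per list by size, and the 5 nearest profiles per class. Acp5, Srgn, Ocstamp, Dcstamp, Calcr, Atp6v0d2, Oscar, Tnfrsf11a, Cebpa, Cebpe, Mcpt4, Cma1 and Tpsb2 were named after their values were seen. Promoters are from RefSeq (GRCm38.p6), where 9 of the 10 genes matched. Alternatives covered normalization, the filter, the probe set per gene, the dim floor, the block, the variance prior and leaving out mice.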

Additional observations from a re-analysis of the deposited data

How the results depend on the processing

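Over 12 alternatives with all mice kept, all 10 granule genes stayed negative and 114 of 120 member results stayed on their side of the threshold. The 6 losses are the 5 without the filter and Ltf under cyclic loess, and Mpo passed under none of the 12. Without the replicate block, which changed no call of a granule gene, genes called higher in Grem1+ numbered 1465 and genes called lower 1078, against 1191 and 864 with it. With every named probe set tested, 1826 were higher and 1409 lower. Without the filter, 500 of 18193 genes were called lower, among them 2 primary and 2 later granule genes. With the block and a mouse left out, 0 genes passed in either direction. Without the block, 767 genes were higher and 507 lower without mouse 1, 764 and 422 without mouse 2, and 769 and 525 without mouse 3. Over these fits with a mouse left out, 0 to 3 primary and 0 to 6 later granule genes passed. The median difference of the 10 genes ran from -4.31 to -2.91, the higher value without mouse 2, against -4.02 with all mice. Without the block, Ctsg, Ltf, Camp, Ngp and Lcn2 were lost without mouse 2, Ctsg and Ngp without mouse 1, and none without mouse 3. The gap between class medians, -0.22 with all mice, changed sign to 0.15 with dim values set to log2 4 and to 1.07 without mouse 2, and was -0.97 without mouse 1, -0.86 without mouse 3 and -0.59 with probe sets averaged; the cause was not tested. Signals below log2 4 have no reliable order, which limits Mpo, Ctsg, Prtn3, Mmp8 and Mmp9 in Grem1+.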

Other observations

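Of the 16 tested genes of secretory vesicles and mature neutrophils, the Grem1+ array of mouse 2 was above that of mouse 1 in 11 and below it in 3, and mouse 3 was the highest Grem1+ array in 12. The order was not the same for every gene. Fpr2, a formyl peptide receptor, stood at 6.45, 3.58 and 8.92 on the Grem1+ arrays of mice 1, 2 and 3, against 10.40, 10.60 and 10.81 on the Grem1- arrays, with mouse 2 lowest in Grem1+ as for Mpo. S100a8, a calcium-binding protein of the neutrophil cytosol, stood at 8.94, 11.11 and 11.69 in Grem1+, against 12.28, 12.22 and 12.46 in Grem1-, with mouse 1 lowest as for Lcn2 and Ltf. Neither passed (limma adjusted p = 0.0646 for Fpr2 and 0.131 for S100a8). These genes were chosen after their values were seen, and no test was made of their order.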
